A study of Mus musculus with 20 samples.

Results

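Extracellular adenosine was followed through 9 genes in sorted cells of 66cl4 and 67NR mouse mammary tumours. These were Nt5e and Entpd1, which make it, Ada, Adk and Dpp4, which bear on its removal, the receptors Adora2a, Adora2b and Adora3, and the transporter Slc29a1. They are 9 of the 52783 genes of the count table, and all 9 were found in it by gene identifier. The set was chosen by the level of Nt5e in CD45+ cells, whose higher counts in 66cl4 libraries were already known. The paper also lists Adora2b among the genes raised in 66cl4 CD45+ cells. For the 9 genes, the comparison of the CD45+ groups and the contrast of tumour effects in one gate and the other are therefore a description, with no test. The difference of Nt5e between the gates shares those CD45+ values and is given without a test as well. The other comparisons between groups were tested across all genes.

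66cl4 and 67NR are cell lines of the 4T1 breast cancer model. 66cl4 tumours are metastatic and 67NR tumours are not. Both lines were grown in female BALB/cJ mice of 8 to 12 weeks, with 1000000 cells injected into the mammary fat pad and tumours taken 21 to 26 days later. All mice carried a tumour, and none of the groups used here came from healthy mice. Each of the 10 tumours, 5 per line, was sorted into CD45+ immune cells and CD45- cells, which gave 4 groups of 5 libraries. The CD45- gate holds tumour cells together with whatever other cells lack CD45, and each tumour type rests on 1 cell line.

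ATP that leaves stressed or dying cells is broken down at the cell surface. Entpd1 (CD39) takes ATP and ADP to AMP, and Nt5e (CD73) takes AMP to adenosine. Adenosine then acts on G protein-coupled receptors: those encoded by Adora2a and Adora2b raise cyclic AMP and are known for restraining T cells and for shifting myeloid cells towards a suppressive state, whereas those encoded by Adora1 and Adora3 lower it. The signal ends when Slc29a1 (ENT1) carries adenosine across the membrane, Adk phosphorylates it back to AMP or Ada deaminates it to inosine. Dpp4 (CD26) is a surface peptidase that in humans also holds adenosine deaminase at the cell surface.

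The libraries held 12960000 to 28080314 counts. Ptprc, which encodes CD45, was higher in the CD45+ than in the CD45- library in 10 of 10 animals, by 33.6-fold to 1932-fold. The cell type recorded for animals 5 and 6 with 66cl4 tumours conflicts with the sample titles, and the titles were followed. The 5 leukocyte markers were at 0.322 to 0.873% of their CD45+ level in the CD45- gate of 66cl4 tumours and at 0.990 to 2.34% in that of 67NR tumours. The summed level of 6 epithelial markers was 6086 to 6843 normalised counts in 66cl4 CD45- libraries and 116 to 469 in 67NR CD45- libraries. Krt8 and Krt18 mainly set this difference, with means of 5353 and 1149 in 66cl4 against 61.6 and 58.6 in 67NR. Krt14 was also higher in 66cl4 (15.8 against 5.44), whereas Epcam (12.1 against 32.8), Krt19 (22.7 against 59.96) and Krt5 (0.836 against 3.98) were lower. Of 5 tested in CD45- cells, 2 were called higher in 66cl4 and 1 lower. Levels below are normalised counts, that is, counts divided by DESeq2 size factors over the 20 libraries. A gene was called when its adjusted p was under 0.05 and its absolute log2 fold change over 1.

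The metastatic and non-metastatic tumours differed in these genes in both gates, and in 1 gene in opposite directions. In CD45+ cells the libraries of the tumour types did not overlap for 4 of the 9 genes. Nt5e and Adora2b were higher in 66cl4, and Ada and Slc29a1 were lower. Over all 14676 genes tested in this comparison, 15.1% did not overlap, 7.11% higher and 7.96% lower in 66cl4. In CD45- cells 7 of the 9 genes passed the filter on low counts. Nt5e was called higher in 66cl4, and Entpd1, Ada, Dpp4 and Adora2b were called lower, where 32.2% of 14844 genes were called, 13.2% higher and 18.9% lower. Adora2b and Dpp4, with at most 4 and 21 counts per 66cl4 CD45- library, passed the filter through their 67NR counts. The CD45- libraries of the tumour types did not overlap for 7 of the 9 genes, 2 higher in 66cl4 (Nt5e and Adk) and 5 lower (Entpd1, Ada, Adora2b, Adora3 and Slc29a1), where 52.9% of the genes tested did not overlap, 25.8% higher and 27.1% lower. Between the gates of 66cl4 tumours, 6 of the 8 genes other than Nt5e were called higher in CD45+ cells and 2 lower, where 44.4% of 14916 genes were called, 23.9% higher and 20.5% lower. Among these, Adora2a, Adora2b and Adora3 had at most 4 counts per 66cl4 CD45- library and passed the filter through their CD45+ counts. Dpp4, with at most 21 counts per such library, did so as well. Between the gates of 67NR tumours, 5 of the 8 genes other than Nt5e were called higher in CD45+ cells, 1 was called lower and 2 were not called, where 39.8% of 15063 genes were called, 20.2% higher and 19.6% lower.

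**Figure D1:**
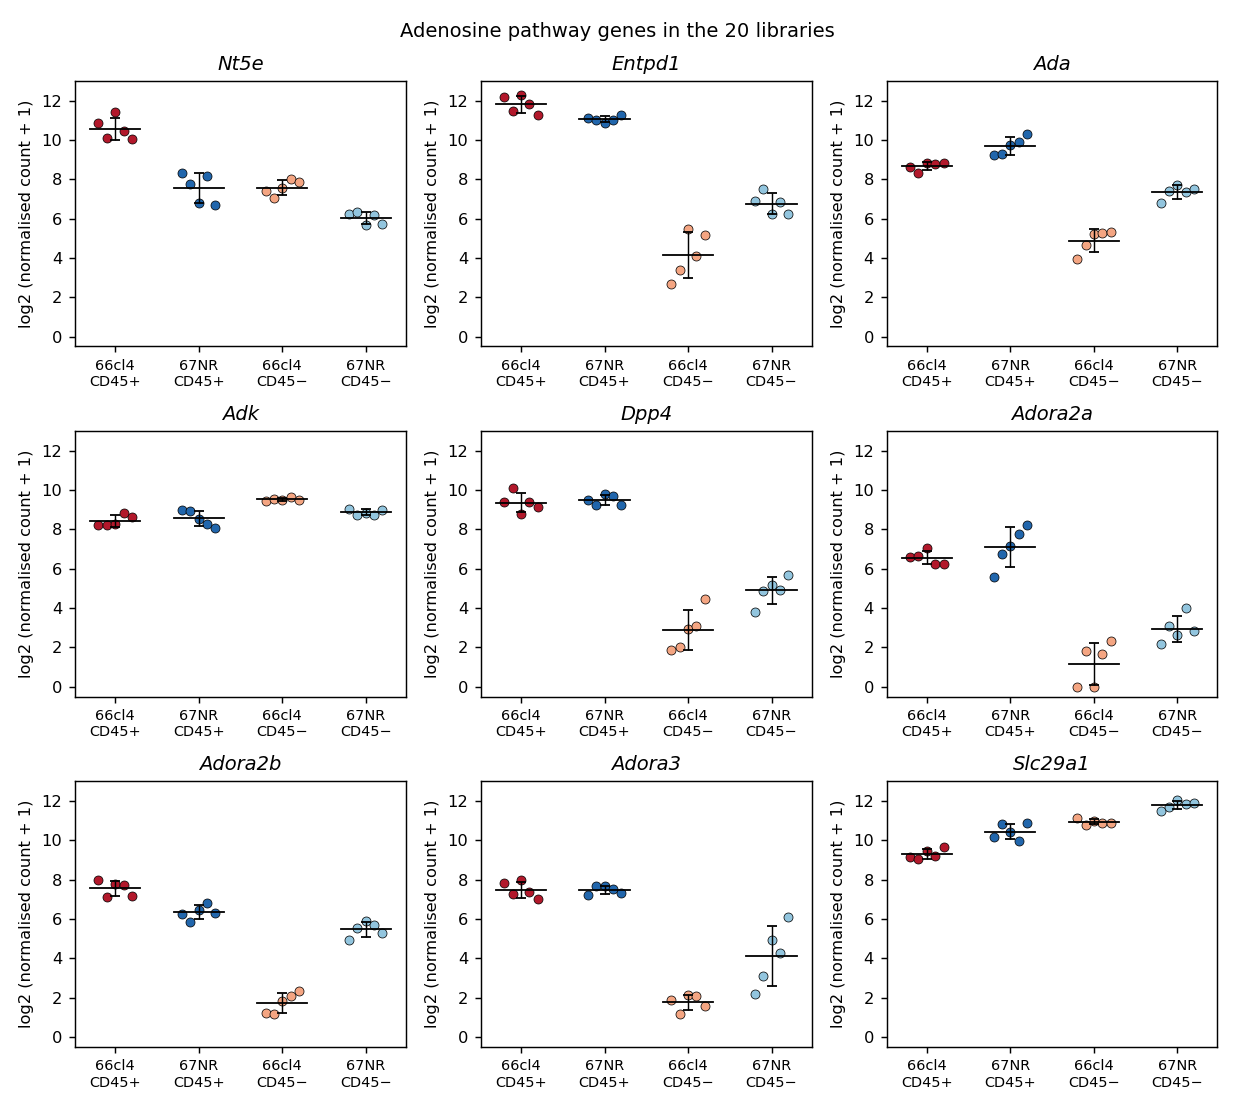
Level of each of the 9 genes, as log2 of the normalised count + 1, in the 5 libraries of each group, with points for libraries, a line for the mean and bars for the SD. Nt5e and Adora2b of the CD45+ gate sit higher in 66cl4 than in 67NR without overlap, and Adora2b of the CD45- gate sits lower in 66cl4.

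Nt5e, the enzyme that forms adenosine from AMP, was highest in 66cl4 CD45+ cells. The normalised counts in animals 3 to 7 of that group were 1861, 1081, 2711, 1416 and 1063, with a mean of 1626.5 ± 688 (SD, n = 5). In 67NR CD45+ cells of animals 1, 4, 5, 6 and 7 they were 325, 214, 111, 288 and 101, with a mean of 208 ± 101. The lowest 66cl4 library was above the highest 67NR library, and the fitted log2 difference was 2.97 (SE 0.405), a 7.83-fold ratio of the means. In a sorted pool, fewer cells of a type and less RNA per cell cannot be told apart.

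The CD45- cells carried Nt5e as well, at a lower level. In 66cl4 CD45- libraries of animals 3 to 7 it was 169, 130.3, 185, 262 and 234 normalised counts. In 67NR CD45- libraries of animals 1, 4, 5, 6 and 7 it was 73.7, 78.8, 50.1, 72.7 and 52.2. The groups did not overlap, and Nt5e was higher in 66cl4 by 1.60 on the log2 scale (SE 0.201, adjusted p = 7.83e-06), which was 2.99-fold. CD45+ cells exceeded CD45- cells of the same animal in 5 of 5 66cl4 and 5 of 5 67NR tumours, with log2 differences of 3.02 (SE 0.290) and 1.66 (SE 0.336). The level of CD45- cells was 12.05% of that of CD45+ cells in 66cl4 and 31.5% in 67NR, above the 5 leukocyte markers in both. Over the markers of all immune cell types, the shares were 0 to 112% for 50 genes in 66cl4 (median 0.623%). The 112% was that of Eomes alone, and the next highest was Cd79a at 7.49%, below Nt5e. In 67NR they were 0 to 35.4% for 51 genes (median 1.97%), and Nt5e lay within that range. In 67NR the 5 mast cell markers were at 19.6 to 35.1%. In order of level, 67NR CD45+ and 66cl4 CD45- cells stood next to each other with overlapping libraries, whereas the other neighbours did not overlap.

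Neutrophil markers differed between the tumours in the same direction as Nt5e in CD45+ cells. Of 7 such markers, 5 were called higher in 66cl4, and they summed to 44190.5 to 125311 normalised counts per 66cl4 library against 7185 to 52320.3 per 67NR library. No marker of the list was at 0 throughout a group. The 3 66cl4 animals with the highest sums (5, 3 and 6) were also the 3 with the highest Nt5e. Among 67NR animals the highest sum and the highest Nt5e were both in animal 1, and the lowest of both were in animal 7, whereas animal 6 had the second lowest sum (15099.5) and the second highest Nt5e (288). The part of neutrophils in the Nt5e difference was not tested.

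**Figure D2:**
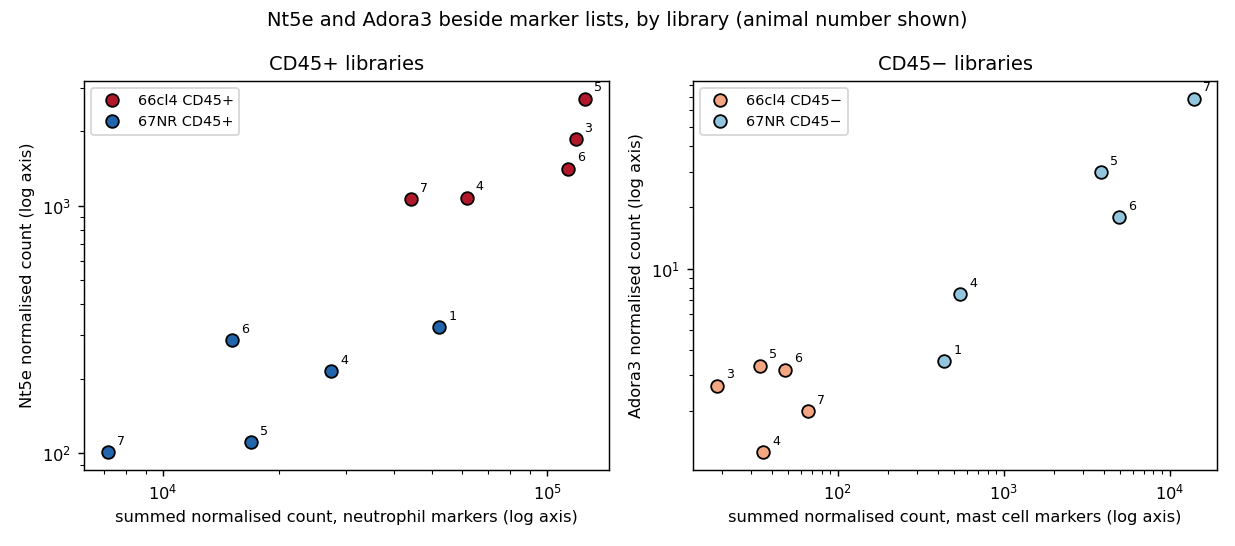
Left, Nt5e against the summed neutrophil markers in the 10 CD45+ libraries; right, Adora3 against the summed mast cell markers in the 10 CD45- libraries, all in normalised counts on log axes with animal numbers. 66cl4 CD45+ libraries lie at 1063 to 2711 for Nt5e and 67NR CD45+ libraries at 101 to 325, and the 67NR CD45- library with the highest mast cell sum, 13967, has the highest Adora3, 68.5.

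Entpd1, the enzyme before Nt5e in the chain, was a gene of the CD45+ gate. Its normalised counts in 66cl4 CD45+ libraries of animals 3 to 7 were 4618, 2851, 5019, 3663 and 2451, and those in 67NR CD45+ libraries of animals 1, 4, 5, 6 and 7 were 2243, 2098, 1878, 2054 and 2486. The groups overlapped only through animal 7 of each tumour type, and the fitted log2 difference was 0.80 (SE 0.184). In CD45- cells it was lower in 66cl4, at 5.31 to 44.1 against 73.8 to 181 normalised counts, by -2.31 on the log2 scale (SE 0.464, adjusted p = 0.000794). CD45+ cells of 66cl4 tumours exceeded CD45- cells by 7.34 (SE 0.463, adjusted p = 5.07e-08) and those of 67NR tumours by 4.25 (SE 0.236, adjusted p = 4.09e-08). The CD45- level was 0.589% of the CD45+ level in 66cl4, within the range of the 5 leukocyte markers, and 5.24% in 67NR, above that range but within the 0 to 35.4% of the markers of all immune cell types.

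In CD45- cells the macrophage markers moved the same way as Entpd1. Of 7 such markers, 3 were called lower in 66cl4, with summed levels of 153 to 1886 against 1246 to 4399 normalised counts and no marker at 0 throughout a group. Of 5 endothelial markers, 4 were called lower, with sums of 517 to 1031 against 1033 to 4114. The share of these cells in the CD45- differences of Entpd1, Ada, Dpp4 and the receptors was not tested.

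Ada, which deaminates adenosine to inosine, was lower in 66cl4 cells of both gates. In CD45+ libraries it was 401, 317, 453, 433 and 456 normalised counts in 66cl4 animals 3 to 7 and 610.3, 625, 856, 951 and 1252 in 67NR animals 1, 4, 5, 6 and 7. No library overlapped, and the log2 difference was -1.04 (SE 0.182). In CD45- libraries it was 14.6 to 38.9 in 66cl4 and 109.7 to 205 in 67NR, again without overlap, and lower in 66cl4 by -2.41 (SE 0.245, adjusted p = 9.38e-07). Ada was higher in CD45+ than in CD45- cells in all 10 animals, by 3.72 (SE 0.225, adjusted p = 2.04e-08) in 66cl4 and 2.35 (SE 0.217, adjusted p = 2.44e-06) in 67NR tumours.

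Adk, which returns adenosine to AMP inside the cell, ran the other way. Its normalised counts in CD45- libraries were 703 to 817 for 66cl4 and 423 to 529 for 67NR, without overlap. The difference of 0.69 (SE 0.0929, adjusted p = 1.52e-05) was significant but below the fold threshold. In CD45+ cells the groups overlapped, at 295 to 461 in 66cl4 and 273 to 499 in 67NR, with a log2 difference of -0.14 (SE 0.210). CD45+ cells had less Adk than CD45- cells in 5 of 5 66cl4 tumours, by -1.10 (SE 0.140, adjusted p = 1.27e-05), whereas in 67NR tumours the difference of -0.27 (SE 0.184, adjusted p = 0.213) was not significant. The 66cl4 call lies at the fold threshold, and without the CD45+ library of animal 3 the difference was -0.99.

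Dpp4 differed between the gates but hardly between the tumours in CD45+ cells. Its normalised counts there were 684, 1091, 434, 683 and 569 in 66cl4 animals 3 to 7 and 716, 596, 881, 839 and 605 in 67NR animals 1, 4, 5, 6 and 7, with a log2 difference of -0.06 (SE 0.224). In CD45- cells 4 of the 66cl4 libraries held 2.65 to 7.44 and animal 7 held 20.96, against 13.2 to 51.1 in 67NR. It was called lower in 66cl4 by -1.91 (SE 0.497, adjusted p = 0.00379), although the libraries overlapped through animal 7, and by -2.59 without that library. CD45+ cells exceeded CD45- cells by 6.39 (SE 0.446, adjusted p = 1.13e-07) in 66cl4, 7.10 without the same library, and 4.54 (SE 0.284, adjusted p = 9.71e-08) in 67NR tumours.

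Adora2b was the only one of the 9 genes whose libraries separated the tumour types in both gates in opposite directions. In CD45+ cells it was 249, 138, 219, 208 and 143 normalised counts in 66cl4 animals 3 to 7 and 74.9, 56.1, 85.4, 113 and 78.2 in 67NR animals 1, 4, 5, 6 and 7. The 66cl4 libraries were all higher, by 1.24 on the log2 scale (SE 0.222), or 2.35-fold, a direction the paper had already listed. In CD45- cells the 66cl4 libraries held 1 to 4 counts each, or 1.25 to 3.99 normalised counts, and the 67NR libraries 29.8 to 58.8 normalised counts. Here the 66cl4 libraries were all lower, by -4.12 (SE 0.350, adjusted p = 1.56e-07), and the 67NR mean was 18.1-fold the 66cl4 mean. Adora2b passed the filter in this comparison through its 67NR counts, so no call in the other direction was open to it. The tumour effect in CD45+ cells minus that in CD45- cells was 5.37 (SE 0.400).

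The gates of the tumour types also differed in how Adora2b was spread. In 66cl4 the CD45- level was 1.28% of the CD45+ level, and the gates differed by 6.22 (SE 0.308, adjusted p = 5.16e-09). In 67NR the CD45- level was 54.6% of the CD45+ level, the libraries of the gates overlapped, and the difference of 0.87 (SE 0.231, adjusted p = 0.00578) was significant but below the fold threshold, with CD45+ higher in 5 of 5 animals. The 67NR share is far above the 0.990 to 2.34% of the leukocyte markers in the same libraries.

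The promoters of Adora2b and Ada are shown because these genes differed between the tumours in both gates, Adora2b in opposite directions and Ada in the same direction. Each sequence is the 250 bases before the gene start in RefSeq, on GRCm38.p6 and in the gene's own direction, at chr11:62248734-62248983 (plus strand) for Adora2b and chr2:163750240-163750489 (minus strand) for Ada. Capitals mark GC boxes, searched as GGGCGG on both strands.
Adora2b: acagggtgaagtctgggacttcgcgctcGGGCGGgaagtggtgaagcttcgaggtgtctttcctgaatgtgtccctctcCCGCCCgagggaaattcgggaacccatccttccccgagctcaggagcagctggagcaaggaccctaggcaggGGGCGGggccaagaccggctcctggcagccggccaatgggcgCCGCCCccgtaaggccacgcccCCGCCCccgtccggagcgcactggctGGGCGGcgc
Ada: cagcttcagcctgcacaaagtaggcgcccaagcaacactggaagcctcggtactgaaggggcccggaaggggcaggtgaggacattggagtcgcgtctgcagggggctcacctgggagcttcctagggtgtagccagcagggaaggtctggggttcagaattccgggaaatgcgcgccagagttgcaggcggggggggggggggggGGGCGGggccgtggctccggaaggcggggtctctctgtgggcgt
The Adora2b window holds 6 GC boxes and the Ada window holds 1. Of 32851 RefSeq promoter windows of this length, 32.7% hold at least 1. The letters ACGTG, the core of the hypoxia response element, were in 16.6% of all windows and in neither of these. The cyclic AMP response element TGACGTCA, in 1.55% of all windows, was in neither as well.

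Adora2a, the receptor best known on T cells, was low. Its normalised counts in CD45+ libraries were 96.0, 99.4, 134, 75.8 and 74.4 in 66cl4 animals 3 to 7 and 46.8, 107, 143, 218 and 297 in 67NR animals 1, 4, 5, 6 and 7. The 67NR libraries lay on both sides of the 66cl4 libraries, and the log2 difference was -0.73 (SE 0.377). CD45- libraries held 0 to 4 counts in 66cl4 and 4 to 19 in 67NR, too few for the fit. The normalised levels there differed in a two-sided exact permutation test of the means (p = 0.0159), with overlapping libraries. CD45+ cells were higher by 5.61 (SE 0.459, adjusted p = 2.52e-07) in 66cl4 and 4.39 (SE 0.520, adjusted p = 2.00e-05) in 67NR tumours.

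Adora3, a receptor prominent on mast cells in rodents, did not separate the tumours in CD45+ cells. It was 224, 152, 256, 162 and 129 normalised counts in 66cl4 animals 3 to 7 and 148, 207, 200.2, 181 and 157 in 67NR animals 1, 4, 5, 6 and 7, with a log2 difference of 0.05 (SE 0.196). In CD45- cells the 66cl4 libraries held 2 to 4 counts, and the 67NR libraries of animals 1, 4, 5, 6 and 7 held 4, 10, 34, 23 and 67. The normalised levels did not overlap (two-sided exact permutation p = 0.00794, which is the smallest that 5 against 5 libraries allow). CD45+ cells were higher by 6.17 (SE 0.309, adjusted p = 5.55e-09) in 66cl4 and by 2.84 (SE 0.571, adjusted p = 0.000971) in 67NR tumours, where the CD45- level was 14.3% of the CD45+ level. Without the CD45- library of animal 7 the 67NR difference was 3.59. Adora3 shares its locus with Tmigd3 on the same strand, which held 0 to 10 counts per library, so the estimated counts of Adora3 are uncertain by how reads were divided between them.

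Mast cell markers moved with Adora3 in the 67NR CD45- libraries. Their summed level there was 439, 545, 3857, 4934 and 13967 normalised counts in animals 1, 4, 5, 6 and 7, and 18.6 to 65.9 in 66cl4 CD45- libraries. Of 5 such markers, 4 were called lower in 66cl4 CD45- cells, and none was at 0 throughout a group. The 2 animals with the lowest sums were those with the lowest Adora3. In CD45+ cells the sums were 14335 to 20519.6 in 67NR and 1078 to 3069 in 66cl4, whereas the Adora3 ranges overlapped. The part of mast cells in Adora3 was not tested.

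Slc29a1, the main equilibrative carrier of adenosine, was lower in 66cl4 and higher in CD45- cells. CD45+ libraries held 566, 535, 700.03, 586 and 799.5 normalised counts in 66cl4 animals 3 to 7 and 1139, 1788, 1359, 1004 and 1892 in 67NR animals 1, 4, 5, 6 and 7, without overlap and with a log2 difference of -1.15 (SE 0.183). CD45- libraries held 1773 to 2238 in 66cl4 and 2838 to 4191 in 67NR. These did not overlap either, and the difference of -0.83 (SE 0.109, adjusted p = 1.17e-05) was significant but below the fold threshold. CD45+ cells had less Slc29a1 than CD45- cells in all 10 animals, by -1.65 (SE 0.127, adjusted p = 1.53e-07) in 66cl4 and -1.31 (SE 0.185, adjusted p = 7.16e-05) in 67NR tumours.

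**Figure D3:**
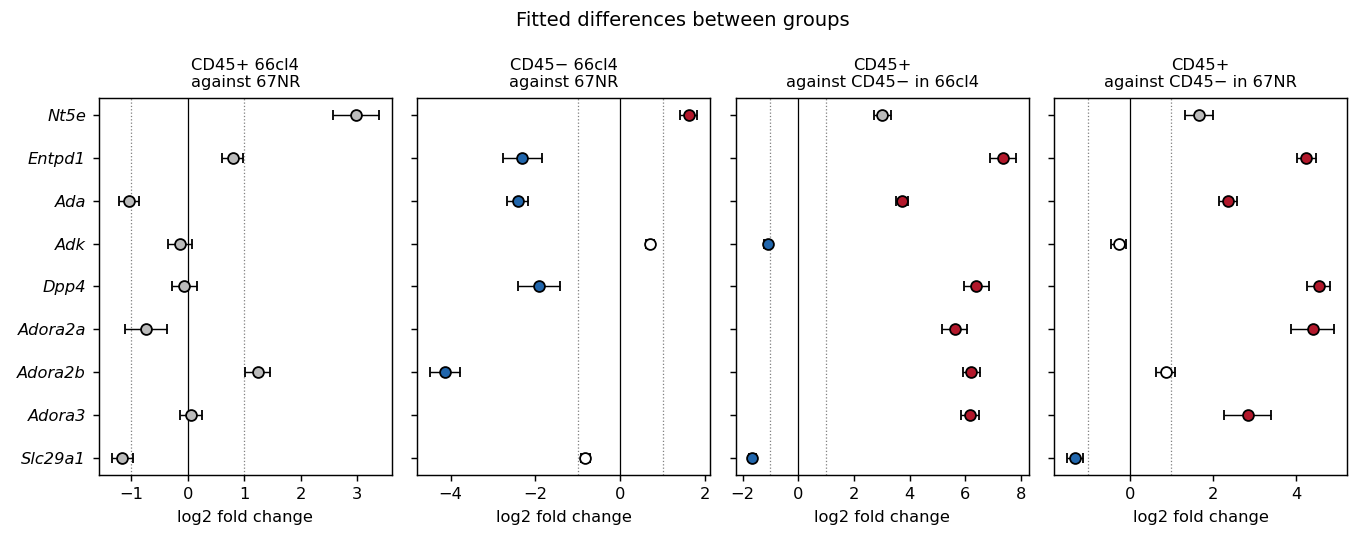
Fitted log2 fold change of each of the 9 genes in the 4 comparisons between groups, with bars for the SE and dotted lines at the fold threshold of 1; red and blue points were called higher and lower, white points were tested but not called, grey points, with Nt5e between the gates among them, were not tested, and a gene with no point did not pass the filter. Entpd1 and Adora2b lie right of 0 in the CD45+ comparison of tumours (0.80 and 1.24) and left of 0 in the CD45- comparison (-2.31 and -4.12).

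To compare the genes with each other, levels were expressed as TPM, counts scaled to transcript length and to the total of the library. In 66cl4 CD45+ cells the order of mean TPM was Entpd1 83.4, Nt5e 38.5, Slc29a1 27.6, Ada 23.2, Dpp4 12.7, Adora2b 9.81, Adk 7.83, Adora3 7.41 and Adora2a 3.54. Of the 8 neighbouring pairs, only Adora3 and Adora2a did not overlap. In 67NR CD45+ cells the order was Slc29a1 60.8, Ada 48.3, Entpd1 47.5, Dpp4 12.9, Adk 8.37, Adora3 7.05, Adora2a 6.09, Nt5e 4.75 and Adora2b 4.15, and only Entpd1 and Dpp4 did not overlap. Nt5e thus stood second in 66cl4 and second from last in 67NR.

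In CD45- cells Slc29a1 led, at 85.2 TPM in 66cl4 and 148 in 67NR, followed by Adk at 16.8 and 10.1. In 66cl4 CD45- cells Nt5e came next at 4.70, without overlap with Adk above it or Ada below it at 1.73, and the other 5 genes were under 1 TPM. In 67NR CD45- cells Ada came next at 9.12, then Entpd1 at 2.50, Adora2b at 2.22 and Nt5e at 1.52. The lengths are those of the longest transcript of each gene. With the mean transcript length, only 4, 4 and 5 of the 9 ranks were kept in 66cl4 CD45+, 67NR CD45+ and 67NR CD45- cells. Entpd1 then came before Slc29a1 and Ada in 67NR CD45+ cells, while Nt5e kept its rank in both CD45+ groups.

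**Figure D4:**
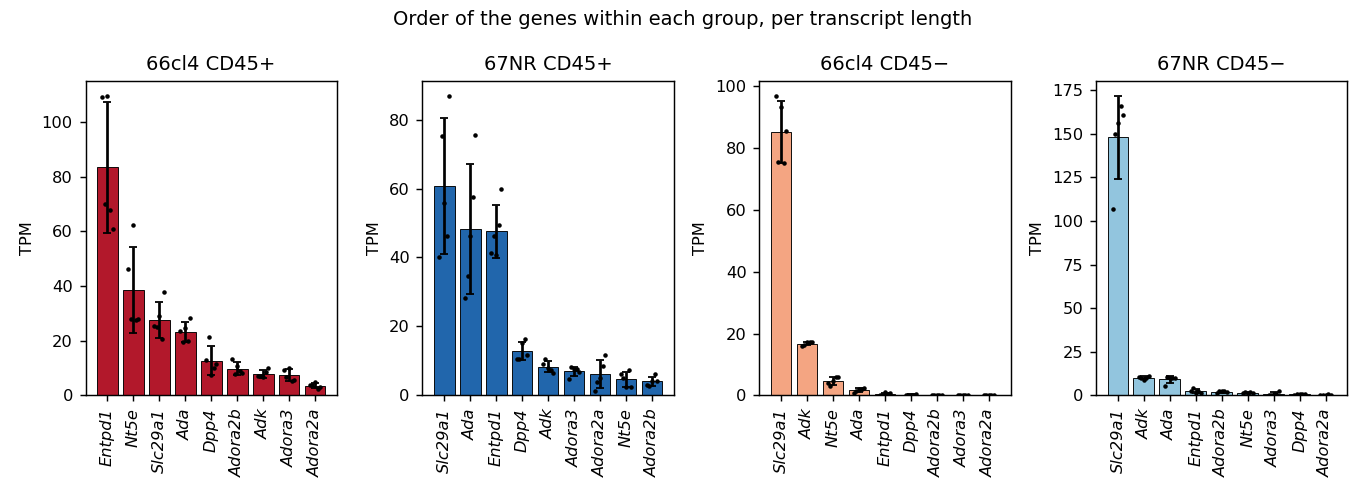
Mean TPM of the 9 genes in each group, ordered from high to low, with bars for the SD and points for the 5 libraries; the vertical axes differ between panels and start at 0. Nt5e is second in 66cl4 CD45+ cells at 38.5 and eighth in 67NR CD45+ cells at 4.75.

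Ratios of TPM within a library were read for single pairs of these genes, so they are no balance of all making and removing enzymes. Adk was left out of them, as was Acp3, a phosphatase that also forms adenosine from AMP. In normalised counts Acp3 was lower in 66cl4, at 172 against 1303 in CD45+ cells and 1310 against 6412 in CD45- cells. The ratio of Nt5e to Ada was 0.986 to 2.53 in 66cl4 CD45+ libraries and 0.0340 to 0.225 in 67NR CD45+ libraries. In CD45- libraries it was 2.18 to 4.88 in 66cl4 and 0.103 to 0.284 in 67NR. The ranges of the tumour types did not overlap in either gate. The ratio of Entpd1 to Nt5e in CD45+ cells was 2.25 ± 0.301 for 66cl4 and 12.4 ± 7.23 for 67NR (SD, n = 5). With the mean transcript length it was 5.89 ± 0.790 and 32.5 ± 18.96, so its size depends on the length used, while the ranges of the tumour types stayed apart. These ratios share the Nt5e values that chose the set and carry no test.

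Adora2b made up more of the receptor transcripts in 66cl4 than in 67NR CD45+ cells. Of the summed TPM of the 4 adenosine receptors in 66cl4 CD45+ cells, Adora2b made up 47.5% ± 5.02, Adora3 35.4% ± 2.37 and Adora2a 17.2% ± 3.31 (SD, n = 5). In 67NR CD45+ cells Adora3 made up 43.2% ± 10.9, Adora2a 31.9% ± 13.6 and Adora2b 24.8% ± 6.11. The Adora2b share was 42.1 to 53.7% in 66cl4 and 19.0 to 33.5% in 67NR libraries, without overlap. With the mean transcript length it was 29.0 to 40.6% and 10.1 to 23.9%, again without overlap. Which receptor led depended on the length used: with the mean length Adora3 and Adora2b were level in 66cl4 at 34.7% ± 1.79 and 34.5% ± 4.96, with Adora2a at 30.8% ± 4.75, and Adora2a led in 67NR at 47.5% ± 15.8. In 67NR CD45- cells Adora2b made up 68.1% ± 17.7, or 57.3% ± 16.9 with the mean length. Adora1 was at 0 in all libraries but the 66cl4 CD45+ library of animal 4, which held 1 count.

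Across the 20 libraries the levels of the 9 genes largely followed the gates, which these libraries share as their main division, so the correlations are only a description. Pearson's r of log2 normalised counts was 0.968 between Entpd1 and Dpp4 and 0.918 between Entpd1 and Ada. Adk and Slc29a1 were each negative with 7 of the other 8 genes, and Nt5e with 2, Adk and Slc29a1. The r of Nt5e was 0.596 with Entpd1, 0.268 with Ada and -0.931 with Slc29a1. The 5 genes most like Nt5e of 16452 ranked over the 20 libraries were Osbpl9 (r = 0.967), Ankrd37 (0.958), Mmp9 (0.948), Gm37498 (0.945) and Fem1c (0.942). Mmp9 encodes a matrix metalloproteinase. Over the 10 CD45+ libraries alone they were E330009J07Rik (0.990), Adam8 (0.987), Xylt1 (0.986), Pygl (0.985) and Thbs1 (0.985).

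The genes most like the others were likewise those of their gate. Entpd1 went with Csf2rb (0.999), Ripk3 (0.995) and Themis2 (0.995), and Dpp4 with Ctse (0.994), Cd69 (0.989) and Adap1 (0.988). Csf2rb encodes a cytokine receptor chain of myeloid cells and Cd69 an activation marker of lymphocytes. Ada went with Slfn5, 1600014C10Rik and Ctsh (0.978 to 0.980), and Adora2a with Cst7, Cd244a and Jazf1 (0.979 to 0.980). Adora2b went with Sqor (0.989), Adprh (0.982) and Pid1 (0.981). Adora3 went with Gpr141b (0.977), Gm33699 (0.975) and I830077J02Rik (0.974). Adk went with Zfp948, Zfp97 and Yae1d1 (0.950 to 0.953), and Slc29a1 with Ankrd9, Dglucy and Cyb5r3 (0.975 to 0.979).

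The wider pathway was read in 61 listed genes that hold none of the 9, in lists chosen with earlier results of these data known. In CD45+ cells 44 of them passed the filter, 6 were called higher in 66cl4 and 4 lower, and the median log2 difference was 0.06 against 0.01 over all genes. Of all genes tested, 11.8% were called, 5.01% higher and 6.82% lower. Without 66cl4 animals 5 and 6, whose labels conflict, and likewise without the CD45+ library of animal 5 alone, 3 were called higher and 4 lower. Among 9 tested ectonucleotidases, Bst1, a relative of Cd38 that breaks down NAD, was higher by 1.69 (SE 0.206, adjusted p = 0.000302). Acp3, a phosphatase that also forms adenosine from AMP, was lower by -2.91 (SE 0.443, adjusted p = 0.00135), and Enpp2, which makes lysophosphatidic acid, was lower by -2.82 (SE 0.480, adjusted p = 0.00199). Cd38 at 0.36 (adjusted p = 0.0768), Enpp1, which cleaves ATP to AMP, at -0.09 (adjusted p = 0.719) and Alpl, tissue alkaline phosphatase, at 0.49 (adjusted p = 0.626) were not called.

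The listed P2X and P2Y receptors did not move as a block in CD45+ cells. Of 7 tested P2Y receptors, P2ry2, which binds ATP and UTP, was higher in 66cl4 by 1.34 (SE 0.275, adjusted p = 0.00527), and P2ry13 and P2ry14 were lower by -1.47 (SE 0.155, adjusted p = 0.000130) and -1.70 (SE 0.144, adjusted p = 3.53e-05). None of 3 tested P2X receptors, 3 nucleoside transporters (Slc29a2 at -0.01, adjusted p = 0.987), 4 ATP release genes or 10 intracellular purine enzymes was called. Of 8 genes known to answer cyclic AMP, 4 were called higher and none lower, with a median of 1.09 against 0.01 over all genes. These were Nr4a2 at 1.34 (adjusted p = 0.0176), Pde4b at 1.26 (adjusted p = 0.000985), Crem at 1.16 (adjusted p = 0.0169) and Nr4a1 at 1.15 (adjusted p = 0.00170). The libraries overlapped for Nr4a2 and Crem. The paper had already listed Nr4a1 and Pde4b among genes raised in CD45+ cells of 66cl4. The count of calls in this list is therefore a description. Without the CD45+ library of 66cl4 animal 5, which had the highest Nt5e, only Pde4b of the 4 stayed called, with Nr4a1 at 0.98, Nr4a2 at 0.93 and Crem at 0.91 below the fold threshold.

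In CD45- cells 40 of the 61 genes passed the filter, and 6 were called higher in 66cl4 and 10 lower, 16 of 40 against 32.2% of all genes tested (13.2% higher and 18.9% lower). Slc17a9, the carrier that loads ATP into vesicles, was higher by 4.01 (SE 0.331, adjusted p = 1.14e-07), and Gja1, a connexin of hemichannels, was lower by -1.41 (SE 0.0840, adjusted p = 3.73e-09). The ectonucleotidase Entpd5 was higher by 1.08 (SE 0.0932, adjusted p = 1.83e-07), whereas Entpd2, which takes ATP to ADP, was lower by -2.66 (SE 0.454, adjusted p = 0.000138), Acp3 by -2.26 (SE 0.170, adjusted p = 6.05e-08) and Enpp1 by -1.43 (SE 0.269, adjusted p = 0.000317). Acp3 in these cells was at 1310.01 ± 397 normalised counts in 66cl4 and 6412 ± 539 in 67NR (SD, n = 5), so that Nt5e and Acp3, which both act on AMP, moved in opposite directions. Cd38 at 0.24 (adjusted p = 0.470) and Alpl at 0.29 (adjusted p = 0.464) were not called.

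Of 15 listed P2X and P2Y receptors, 6 passed the filter in CD45- cells, and of these 4 were called lower in 66cl4 and 1 higher. P2rx7, an ATP-gated channel, fell furthest, from 465 ± 42.5 normalised counts in 67NR to 20.6 ± 8.09 in 66cl4, or by -4.42 (SE 0.199, adjusted p = 2.24e-10). P2ry13, P2ry6 and P2ry12 were lower by -2.998 (adjusted p = 0.000450), -2.06 (adjusted p = 0.000767) and -1.86 (adjusted p = 0.0162), and the call of P2ry12 was lost with no filter on low counts (adjusted p = 0.0556). P2ry14 at -0.36 (adjusted p = 0.456) was not called. P2rx4 was higher by 1.28 (SE 0.144, adjusted p = 2.72e-06). Among the other lists, Nt5c3 was higher by 1.13 (adjusted p = 1.44e-06), Slc28a2 lower by -1.47 (adjusted p = 0.0331), Nr4a2 and Nr4a3 higher by 1.38 (adjusted p = 0.00162) and 1.66 (adjusted p = 0.0278) and Pde4b lower by -3.77 (SE 0.267, adjusted p = 7.87e-08). The call of Slc28a2 was lost under several settings, with -1.15 (adjusted p = 0.0924) without the CD45- library of 67NR animal 4. That of Nr4a3 was lost likewise, with 1.12 (adjusted p = 0.0511) without the CD45- library of 66cl4 animal 5. Slc29a2, another equilibrative carrier, at 0.68 (adjusted p = 0.0162) was below the fold threshold.

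**Figure D5:**
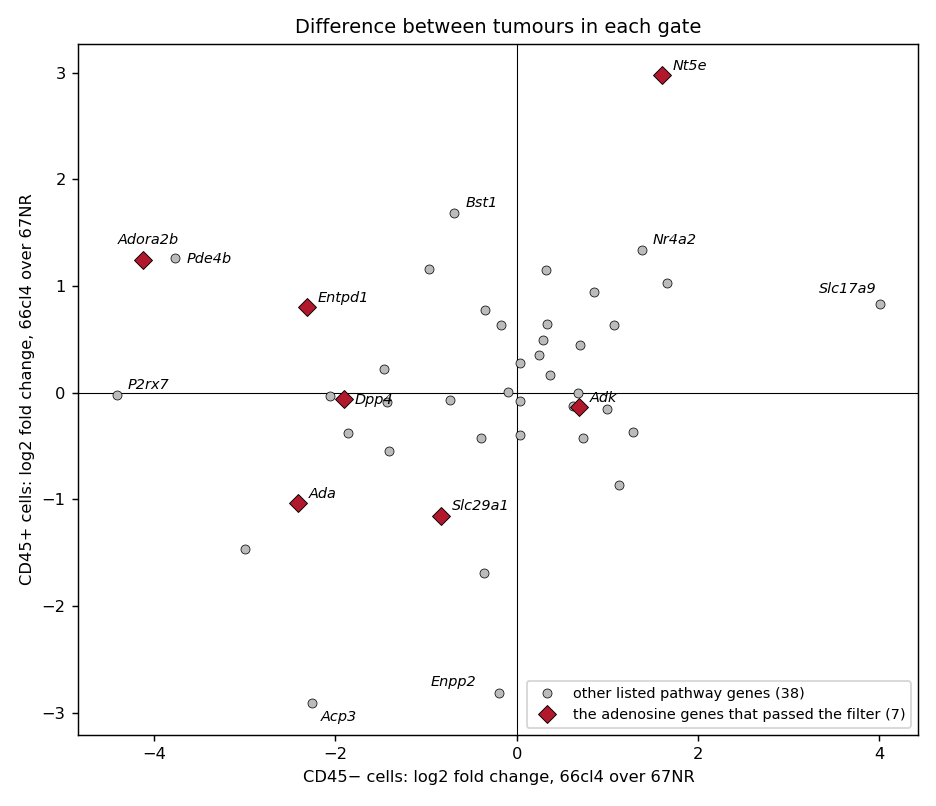
Log2 fold change of 66cl4 over 67NR in CD45- cells (horizontal axis) and CD45+ cells (vertical axis) for the 7 of the 9 genes and the 38 other listed pathway genes that passed the filter in both comparisons. Adora2b (-4.12 and 1.24) lies beside Pde4b (-3.77 and 1.26) in the upper left, and Nt5e (1.60 and 2.97) is highest in the upper right.

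The tumour effect differed between the gates for many of these listed genes. Of 45 tested, 23 had an interaction of tumour and gate at an adjusted p under 0.05, 15 positive and 8 negative, where 43.1% of 16453 genes had one. It was 5.04 for Pde4b (SE 0.351, adjusted p = 1.21e-09) and 4.40 for P2rx7 (SE 0.271, adjusted p = 1.75e-10). It was -3.18 for Slc17a9 (SE 0.451, adjusted p = 1.29e-05). For Acp3, which was lower in 66cl4 in both gates, it was -0.63 (SE 0.458, adjusted p = 0.278).

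Between the gates the P2X and P2Y receptors that passed the filter, 9 of 15 listed in 66cl4 and 10 in 67NR, were called higher in CD45+ cells. P2ry1, P2ry10 and P2ry13 passed through their CD45+ counts, with at most 1, 5 and 10 counts in 66cl4 CD45- libraries. The count is therefore partly set by the filter. P2rx6 failed the filter and was not tested, and it was lower in CD45+ cells of 66cl4, at 0.34 against 7.60 normalised counts. Of the 61 genes, 24 of 43 tested were called higher in CD45+ cells and 5 lower in 66cl4 tumours, and 25 of 45 were called higher and 5 lower in 67NR tumours. Of all genes tested, 23.9% were called higher and 20.5% lower in 66cl4, and 20.2% and 19.6% in 67NR. All 7 tested P2Y receptors were higher in CD45+ cells of both tumours, by 4.16 to 9.54 in 66cl4 and 4.28 to 6.79 in 67NR, with P2ry10, P2ry1, P2ry6, P2ry13, P2ry12 and P2ry2 among them. P2ry10, which was listed by its name only, gave the upper end of both ranges. Among the P2X receptors, P2rx7 was higher by 5.72 in 66cl4 and 1.34 in 67NR, P2rx4 by 1.94 and 3.60, and P2rx1 by 1.71 in 67NR, a call lost without any 1 of 4 libraries (adjusted p of 0.0532 to 0.0761).

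Among ectonucleotidases, Entpd3 (6.93 and 5.05), Enpp1 (5.69 and 4.34), Bst1 (5.57 and 3.20), Cd38 (3.14 and 3.04) and Entpd6 (1.02 and 1.16) were higher in CD45+ cells of 66cl4 and 67NR tumours, respectively. Entpd3 had at most 2 and 6 counts per CD45- library of these tumours and passed the filter through its CD45+ counts. With 3 counts allowed per CD45- library, its 66cl4 ratio was at least 36.7-fold. The 66cl4 call of Entpd6 lies at the fold threshold and was lost under 5 settings, at 0.97 to 0.99. Enpp2 (-4.17 and -1.55) and Acp3 (-2.95 and -2.29) were lower in both, and Enpp3 (-2.87) was lower in 67NR. Of the enzymes that act on AMP, Nt5e was higher in CD45+ cells and Acp3 in CD45- cells. Alpl was not called in 66cl4 (-0.22, adjusted p = 0.722) or in 67NR (-0.40, adjusted p = 0.437).

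The remaining lists were mixed between the gates. Panx1, an ATP channel, was higher in CD45+ cells by 6.05 in 66cl4 and 4.55 in 67NR, Slc17a9 by 3.82 in 67NR, and Gja1 was lower by -1.40 and -2.26. Panx1 had at most 7 counts per 66cl4 CD45- library and passed the filter there through its CD45+ counts. The nucleoside carriers Slc28a2 (6.65 and 4.99) and Slc29a3 (2.24 and 2.28) were higher in CD45+ cells, whereas Slc29a2, like Slc29a1, was lower in 66cl4 (-1.41, adjusted p = 5.98e-05), with -0.71 (adjusted p = 0.0382) in 67NR. Of the intracellular enzymes, Ampd3 was lower in both (-1.26 and -1.35), Hprt was higher in 66cl4 (1.39) and Nt5c3 and Pnp were higher in 67NR (2.28 and 1.87). Of the genes that answer cyclic AMP, Pde4b (6.38 and 1.36), Crem (3.86 and 1.74), Pde4d (2.67 and 2.38) and Nr4a3 (2.69 and 3.32) were higher in CD45+ cells of both tumours, and Nr4a1 (1.33) and Per1 (1.08) in 66cl4. Per1 fell under the fold threshold without the CD45+ library of animal 5 (0.95) or the CD45- library of animal 7 (0.94).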

How the data were processed

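mRNA libraries from sorted tumour cells (SENSE mRNA-Seq kit) were quantified by the authors, who per the labels used bcl2fastq 2.2.20 and Salmon 1.3.0 and per the methods summed transcripts to genes. The deposited table holds estimated counts of 52783 genes, not normalised. GRCh38 is named as the reference although the gene identifiers are mouse. Coordinates are therefore those of GENCODE M21 and RefSeq (GRCm38), not of the files. Symbols matched 51492 identifiers, and Acp3 was matched through its RefSeq synonym. Groups follow the sample titles.

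Counts were rounded, which changed values by at most 0.5. Groups were compared in R 4.3.3 with edgeR 4.0.16 (quasi-likelihood test, TMM, robust fit, default group filter at 10 counts and a total of 15), only the groups compared entering a fit, with Benjamini-Hochberg adjustment over all genes tested. The interaction used all 20 libraries. Levels are counts divided by size factors of DESeq2 1.42.0. TPM used transcript lengths of GENCODE M21. Genes failing the filter were compared by exact permutation tests. A gene with no count could still hold up to 3 counts, or 1.07e-05 to 2.31e-05% of the total, for counting error alone.

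The 9 genes and the lists were chosen with earlier results of these data known. The genes named are the 9, each called pathway gene (the 6 largest per list and direction), Adora1, Slc29a2, Cd38, Enpp1 and Alpl, and the genes of highest Pearson r. CD45+ and CD45- libraries of the same tumour and number come from the same animal and are paired by it. Their deviations from the means of their groups correlated at 0.0242 to 0.148 for 66cl4 and at -0.00308 to 0.324 for 67NR. Libraries of different tumours share only a number. On simulated counts, edgeR recovered 175 of 200 changed genes with 5 against 5 libraries over 14744 genes, with no false call. Alternatives were RLE factors, the Wald test of DESeq2, a stricter or no filter, a fit of all 20 libraries, the replicate block, leaving out libraries or 66cl4 animals 5 and 6, and, for levels, CPM, TPM and the mean transcript length.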

Additional observations from a re-analysis of the deposited data

Results flagged for a closer look

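Dpp4 in the CD45- library of 66cl4 animal 7 was 21 normalised counts, apart from the other 4 libraries of its group at 2.65 to 7.44. Of 36 groups of 5 libraries examined this way, 1 had a library apart, where chance gives about 1 in 20, or 1.8. Of 13 marker lists, 8 had their highest sum of the group in that library, those of T cells (39.9 normalised counts against 13.7 to 18.6 in the others), monocytes (204), B cells (109), NK cells (222), mast cells (65.9), eosinophils (2.00), fibroblasts (15215) and endothelial cells (1031). Its leukocyte sum, 927, was within the 259 to 1242 of the group. Over the group the NK cell sum (median 191) was mostly Eomes (mean 190), and the B cell sum (median 85.0) mostly Cd79a (mean 70.6). The part of these cell types in the Dpp4 value was not tested.

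Adora2b had opposite differences between the tumours in the gates, every 66cl4 library being above every 67NR library in CD45+ cells and below in CD45- cells. The tumour effect differed by 5.37 on the log2 scale. This difference was not tested, and its CD45- side rests on at most 4 counts per 66cl4 library.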

How the results depend on the processing

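The total number of called or not overlapping genes in each comparison stayed within 1.5 times its value in all 156 checks of these numbers. Among the checks of other results, 802 stayed the same, 24 moved and 1 was weaker. The listed pathway genes called higher in CD45+ cells of 66cl4 went from 6 to 3 without 66cl4 animals 5 and 6 and without the CD45+ library of animal 5. Those called lower in CD45+ than in CD45- cells of 66cl4 went from 5 to 8 with no filter and without 66cl4 animals 5 and 6. Of the genes not overlapping in CD45+ cells, 2 to 3 were higher and 1 to 2 lower in 66cl4 over the alternatives. The replicate block pairs the gates of the same animal. With it, 6 of the 8 genes other than Nt5e were called higher in CD45+ cells of 66cl4 tumours and 2 lower. In 67NR tumours 5 of these 8 were called higher and 1 lower. Of the listed pathway genes, 30 and 30 were called in the 66cl4 and 67NR gate comparisons. Between the tumours the block joins different animals that share only a number, so its results there are not read. The block changed none of these calls of the 8 genes. Leaving out 1 library at a time gave 5 calls among the 9 genes in the CD45- comparison throughout. Between the gates, among the 8 genes other than Nt5e, it changed only the call of Adk in 66cl4 tumours (-0.99). It gave 7 to 12 and 14 to 20 listed pathway genes in the CD45+ and CD45- comparisons. DESeq2's Wald test, which also took in Adora2a and Adora3, called 7 of the 9 genes in CD45- cells. The CD45+ differences of Adk, Dpp4 and Adora3 lie near 0 and changed sign under some settings. Between the same numbers of the tumour types the correlations were -0.145 to 0.083. Adora2a, Adora2b and Adora3 at up to 4 counts in 66cl4 CD45- libraries are limited by depth.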
